A study of Mus musculus with 26 samples.

Results

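Ion channels, pumps and solute carriers were followed in the hearts of mouse embryos at embryonic day 12.5. The group was defined by gene symbol alone: voltage-gated and inward rectifier potassium channels and their relatives (Kcn), calcium (Cacn), sodium (Scn) and chloride (Clcn) channels, subunits of the sodium pump (Atp1a and Atp1b), calcium pumps (Atp2), water channels (Aqp), solute carriers (Slc) and ATP-binding cassette proteins (Abc). Kcne1, Slc8a1 and Atp2a2 were left out of it. On the arrays it held 184 of the 6137 genes that carried a symbol of their own, measured by 227 probe sets, of which 163 were on the A array and 64 on the B array.

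The mouse line carried a deletion of the NK2-specific domain, a conserved stretch of the cardiac homeodomain factor Nkx2.5. Wild-type hearts numbered 5 and are called 1, 2, 7, 9 and N1. The 4 with a single deleted allele, heterozygous for it, are called 5, 6, 12 and N2, and the 4 with none intact, null, are called 3, 4, 8 and N3. Total RNA from each entire heart was run on an A and a B array, 26 arrays in all. Strain, sex and litter were not given for any heart, and nothing in the labels shows that hearts came from separate litters, so the p-values measure only the spread between these hearts. In RNA from whole hearts, fewer cells of a type and less RNA per cell cannot be told apart.

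Channels let ions pass down their gradients, pumps spend ATP to build those gradients, and solute carriers move sugars, amino acids, metals, nucleotides and metabolites across the plasma membrane or the membranes of organelles. In heart muscle, sodium, calcium and potassium currents shape the action potential, the sodium pump restores the gradients after each beat, and the adenine nucleotide carriers of the mitochondrial inner membrane hand ATP to the contractile apparatus. Glucose and lactate are main fuels of the embryonic heart, which beats before its mitochondria and its fatty acid uptake have matured.

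The values were linear intensity as the authors deposited it, with 10.1% to 17.1% of the values of an A array and 24.4% to 29.5% of those of a B array below 0. A probe set counted as above background in a heart if its signal exceeded a floor of 2 times the noise of its array design, 887 on A and 1373 on B. Blank cells occurred on 6 A arrays and 4 B arrays. On 3 arrays of each design most cells were blank, up to 81.3% on A and 80.6% on B, so values by heart are given for the hearts that had one, and a difference between genotypes given without them rests on 9 to 13 hearts. All 9 cardiomyocyte markers on the arrays, of a list of 14, exceeded the floor in every heart with a value, while 5 of the 6 liver markers exceeded it in none. Each marker was taken at its probe set with the highest median signal.

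Most members were not above background. A signal over the floor in every heart with a value was found for 35 of the 227 probe sets (15.4%, against 23.5% of all 13069 probe sets) and for at least 1 probe set of 31 genes. A further 42 probe sets exceeded the floor in some hearts only. The other 150 probe sets (66.1%, against 58.2% of all) exceeded it in no heart, and 120 of the 184 genes had no probe set above it in any heart. The share always above was 15.95% of members on A, where all probe sets gave 29.7%, and 14.1% on B, where all gave 17.4%. A level under the floor says that the signal was not detectable on these arrays, not that the transcript was absent.

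The roles differed in how many members were measurable. Mitochondrial carriers were above the floor throughout for 10 of 21 probe sets and the sodium pump subunits for 2 of 5. Amino acid carriers reached this for 5 of 23, acid-base and ion-coupled carriers for 4 of 17, fuel carriers for 3 of 18, ABC proteins for 3 of 21, carriers of nucleosides and nucleotide sugars for 2 of 14, and metal ion carriers for 2 of 18. Among 34 potassium channel probe sets 1 did so. None of the 8 calcium channel, 5 calcium pump, 5 chloride channel, 7 sodium channel and 4 water channel probe sets did, and no sodium or water channel exceeded the floor in any heart. Probe sets above the floor in at least 4 arrays and with at least 2 values per genotype were tested, which took in 61 probe sets of 50 genes. Signals below the floor were raised to it before log2 was taken, so differences of weak members can be understated. Of the 166 left, 150 had no heart above the floor and 16 had 1 to 3.

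**Figure D1:**
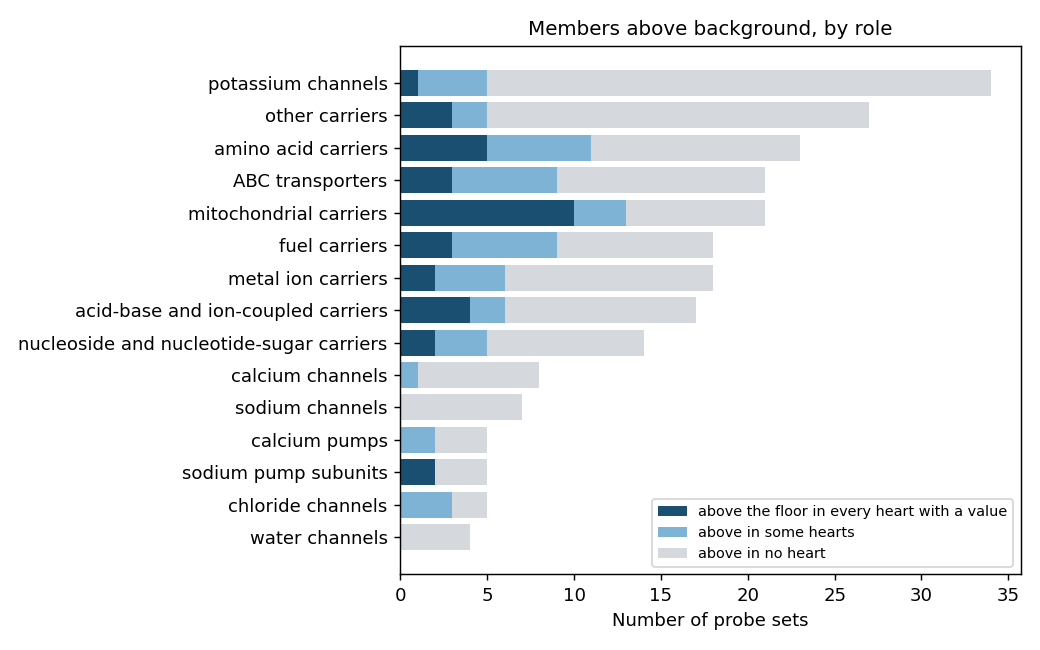
The bars give, for each role, the number of probe sets (horizontal axis) above the floor in every heart with a value (dark), in some hearts (light) or in none (grey). Mitochondrial carriers have the longest dark bar, 10 of 21 probe sets, and 29 of the 34 potassium channel probe sets are grey.

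Genes best known from the cardiac action potential were mostly under the floor. Kcnq1, the pore of the slow delayed rectifier, Kcnj2, which carries the inward rectifier current, Kcnj3 and Kcnj5, which together form the acetylcholine-gated channel of the atria, Kcnd2 and Kcna5, of the transient outward and ultrarapid currents, and the background channel Kcnk3 exceeded it in no heart. Kcnj8, a pore of ATP-sensitive channels, and Abcc9, the sulfonylurea receptor that pairs with it, exceeded it in none either. The same held for Cacna1d and Cacna1s, pore subunits of L-type calcium channels, for their partners Cacna2d1 and Cacnb2, and for Scn1a, Scn3a, Scn7a, Scn8a, Scn9a and Scn10a. Atp2a1, the calcium pump of fast skeletal muscle, the water channels Aqp1, Aqp4 and Aqp8, the sodium-potassium-chloride cotransporter Slc12a2, the glucose carrier Slc2a3 and the drug exporter Abcb1a were likewise under the floor in every heart. Slc2a4, the insulin-responsive glucose carrier, exceeded it in 1 of 10 hearts on one probe set and in none on the other. The calcium pump Atp2a3 exceeded it on AA688944_at in 1 of 4 wild-type hearts and in no heterozygous or null heart. On its other probe sets it exceeded the floor in no heart.

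Of the potassium channels, 3 genes could be tested. Kcnn1, a small-conductance calcium-activated channel (w50685_s_at), was above the floor in all 13 hearts, with signals of 2162, 1967, 4323, 3073 and 3210.1 in wild-type hearts 1, 2, 7, 9 and N1, 2212, 2716, 2031 and 2943 in heterozygous hearts 5, 6, 12 and N2, and 2303, 3117, 4073 and 2601 in null hearts 3, 4, 8 and N3. The genotypes overlapped, and the null minus wild-type log2 difference was 0.06 ± 0.25 (SE; adjusted p = 0.9999, limma). Kcnh2, the pore of the rapid delayed rectifier that ends the cardiac action potential (af012868_at), gave 1589, 1257, 1469 and 1283 in wild-type hearts 2, 7, 9 and N1, 1557 and 1814 in heterozygous hearts 5 and 12, and 789.8, 1093, 1917 and 1198 in null hearts 3, 4, 8 and N3. Both heterozygous values lay within the range of the null hearts, and null heart 3 was under the floor. The null minus wild-type difference was -0.19 ± 0.22 on the log2 scale. Kcnj11, the pore of ATP-sensitive channels of muscle and beta cells (d50581_at), exceeded the floor in 4 of 10 hearts, with 1045, 573, 94 and 396 in wild-type hearts 2, 7, 9 and N1, 977 and 397 in heterozygous hearts 5 and 12, and 1209, 1683, 719 and 265 in null hearts 3, 4, 8 and N3. Its log2 difference between null and wild-type hearts was 0.28 ± 0.18, and its other probe set was in no heart above the floor.

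Cacna1c, the pore of the main L-type calcium channel of heart muscle (l01776_s_at), was the only calcium channel tested. Its signal was 1064, 1447, 792 and 1294 in wild-type hearts 2, 7, 9 and N1, 1066 and 841 in heterozygous hearts 5 and 12, and 936, 1225, 867 and 986 in null hearts 3, 4, 8 and N3, close to the floor in every genotype. The log2 differences from wild-type hearts were -0.20 ± 0.17 in null and -0.25 ± 0.21 in heterozygous hearts, with ranges that overlapped. Clcn3, a chloride-proton exchanger of endosomes, gave 1079.8, 1417 and 1809.9 in wild-type hearts 1, 2 and 7, 1327, 1844, 1919 and 1393 in heterozygous hearts 5, 6, 12 and N2, and 1525, 1891 and 1550.3 in null hearts 4, 8 and N3. Null minus wild-type hearts gave a log2 difference of 0.11 ± 0.18. Clcn4, a close relative of it in the same compartments, had a pair of probe sets that differed in sign between null and wild-type hearts, at 0.09 ± 0.14 and -0.25 ± 0.32 on the log2 scale.

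The tested pumps were 2 sodium pump beta subunits and 1 calcium pump, while the beta subunit Atp1b2 was under the floor in every heart. Atp1b1, the main beta subunit, which escorts the catalytic subunit to the cell surface (x61433_s_at), had signals of 31707, 35542, 30189, 24119 and 32283 in wild-type hearts 1, 2, 7, 9 and N1, 38185, 36635, 29983 and 29518 in heterozygous hearts 5, 6, 12 and N2, and 37086, 31307, 36422 and 36756 in null hearts 3, 4, 8 and N3. Each genotype overlapped the others: means were 30768 ± 4199 (SD, n = 5) in wild-type, 33580.2 ± 4471 (SD, n = 4) in heterozygous and 35393 ± 2737 (SD, n = 4) in null hearts. Between null and wild-type hearts the log2 difference was 0.21 ± 0.16 (SE; adjusted p = 0.9999, limma). Atp1b3, a second beta subunit (U59761_s_at), gave 3935, 4228, 4205 and 4249.7 in wild-type hearts 2, 7, 9 and N1, 3453 and 5411 in heterozygous hearts 5 and 12, and 3189.5, 3171 and 4464 in null hearts 3, 4 and N3. Its wild-type hearts lay close together, within the range spanned by the null and heterozygous hearts, and the null minus wild-type difference was -0.22 ± 0.20 on the log2 scale. Atp2c1, which loads the Golgi with calcium and manganese (AA218068_at), exceeded the floor in 9 of 13 hearts, with means of 1059.9 ± 194 (SD, n = 5), 956 ± 157 (SD, n = 4) and 1024 ± 123 (SD, n = 4) in wild-type, heterozygous and null hearts. Its null minus wild-type log2 difference was -0.05 ± 0.14.

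Mitochondrial carriers supplied the most measurable members, with 13 probe sets of 8 genes tested. Slc25a4, the adenine nucleotide carrier of heart and skeletal muscle, gave 28934, 25503, 25107 and 24050.0 in wild-type hearts 2, 7, 9 and N1, 29388 and 28397 in heterozygous hearts 5 and 12, and 31735, 30920.3 and 21281 in null hearts 3, 4 and N3 on the A array (u27315_f_at). On the B array its signals were 41562, 31911 and 27438 in wild-type hearts 1, 2 and 7, 28458, 31488, 31902 and 31655 in heterozygous hearts 5, 6, 12 and N2, and 33807, 32338 and 34431 in null hearts 4, 8 and N3. Null and wild-type hearts overlapped on both arrays, although on B the 3 null hearts were above the 4 heterozygous hearts. The null minus wild-type log2 differences were 0.09 ± 0.16 and 0.02 ± 0.20. Slc25a5, the form of the same carrier found in most growing tissues, had 3 probe sets with null minus wild-type differences of 0.06 ± 0.14, -0.12 ± 0.15 and 0.22 ± 0.24 on the log2 scale, and they did not share a sign. All probe sets of these closely related genes are of a type whose probes can match several family members, so the genes may not be separated. The highest heart exceeded the lowest by 1.38-fold for Slc25a5 on u27316_f_at, the narrowest range among the 35 members that were always above the floor.

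Other members of the mitochondrial family were Slc25a1, which exports citrate (null minus wild-type log2 difference 0.01 ± 0.15), Slc25a10, the dicarboxylate carrier (0.08 ± 0.22), and Slc25a17, which works in peroxisomes (0.10 ± 0.17). Slc25a20, the carrier that brings acylcarnitines in for fatty acid oxidation, had log2 differences of -0.03 ± 0.24 and 0.10 ± 0.22 on its probe sets. Over the 13 probe sets the null minus wild-type log2 difference was above 0 in 9 and had a median of 0.06, while the heterozygous minus wild-type difference was above 0 in 4 and had a median of -0.08. None of them passed the adjusted threshold, and over all 4494 tested probe sets the medians were -0.01 and -0.01.

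Fuel carriers gave 5 tested probe sets. Slc2a1, the constitutive glucose carrier of embryonic tissues (M22998_s_at), had signals of 5478, 4258, 4687 and 4880.1 in wild-type hearts 2, 7, 9 and N1, 5760.2 and 7195 in heterozygous hearts 5 and 12, and 7738, 6092 and 4610.5 in null hearts 3, 4 and N3. Both heterozygous hearts were above all wild-type hearts, whereas the null hearts overlapped them. The log2 differences from wild-type hearts were 0.42 ± 0.21 in heterozygous and 0.32 ± 0.19 in null hearts (SE; adjusted p = 0.981 and 0.9999, limma). Slc2a8, an intracellular glucose carrier (aa254369_s_at), ranged from 1218 in null heart 4 to 4278 in wild-type heart 9, and its null minus wild-type difference was -0.51 ± 0.36. For Slc27a1, a fatty acid uptake protein (af023258_s_at), 3 of 4 wild-type and 3 of 4 null hearts exceeded the floor and no heterozygous heart did. It met the filter only through wild-type and null hearts. With values under the floor raised to it, the wild-type mean log2 signal lay 1.14-fold above the floor. The heterozygous minus wild-type difference had an adjusted p of 0.981 in limma. Measured means were 403 in heterozygous and 886 in wild-type hearts, the latter not above the floor of 887. Such ratios set the brighter group's mean log2 signal against the floor and are not lower bounds on a difference.

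Slc16a1, which carries lactate and pyruvate with a proton, was measured on both arrays. On the B array it gave 6391, 6197 and 5091 in wild-type hearts 1, 2 and 7, 4739.8, 3857, 3436 and 2178 in heterozygous hearts 5, 6, 12 and N2, and 5788, 2419.6 and 3298 in null hearts 4, 8 and N3. All 4 heterozygous hearts were below the 3 wild-type hearts, and null heart 4 lay among the latter. The heterozygous minus wild-type log2 difference was -0.78 ± 0.32 (SE; unadjusted p = 0.03, adjusted p = 0.981, limma) and the null minus wild-type difference -0.71 ± 0.34. The A probe set (aa511301_s_at) gave 1170.4, 1208, 1195 and 1679 in wild-type hearts 2, 7, 9 and N1, 1431, 1525 and 809 in heterozygous hearts 5, 12 and N2, and 1394, 1106, 1150.5 and 1350.0 in null hearts 3, 4, 8 and N3, with overlapping genotypes. Its differences were -0.06 ± 0.21 and -0.06 ± 0.20 on the log2 scale, so the difference seen on B was not found on A.

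Amino acid carriers included the member with the smallest p between null and wild-type hearts. Slc1a5, a sodium-dependent exchanger of glutamine and other neutral amino acids (l42115_s_at), had signals of 1283, 1161, 1359.7 and 1431 in wild-type hearts 2, 7, 9 and N1, 986 and 1148 in heterozygous hearts 5 and 12, and 498, 901, 904 and 1077 in null hearts 3, 4, 8 and N3. Every null heart was below every wild-type heart, with means of 845 ± 246 (SD, n = 4) and 1309 ± 115 (SD, n = 4), and the heterozygous hearts lay between the group means. Null heart 3 was under the floor and the other null values, of 901, 904 and 1077, lay close to it. The null minus wild-type log2 difference was -0.47 ± 0.13 (SE; unadjusted p = 0.0032, adjusted p = 0.9999, limma). It did not pass the threshold.

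Slc6a6, the sodium-coupled taurine carrier (aa276906_s_at), showed a like order, with 2383, 2541, 1864 and 2352 in wild-type hearts 2, 7, 9 and N1, 2878, 1802, 1964 and 1396 in heterozygous hearts 5, 6, 12 and N2, and 1545, 1698, 1475 and 1323 in null hearts 3, 4, 8 and N3. No null heart reached the lowest wild-type heart, while the heterozygous hearts spanned both groups. Means were 2285 ± 293 (SD, n = 4) in wild-type and 1510.1 ± 156 (SD, n = 4) in null hearts, and the log2 difference was -0.59 ± 0.22 (SE; unadjusted p = 0.015, adjusted p = 0.9999, limma). A second Slc6a6 probe set (AF020194_at), above the floor in 5 of 10 hearts, gave -0.12 ± 0.16 with overlapping genotypes. One more was above it in 3 of 11 hearts and not tested.

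Slc3a2, the heavy chain that takes several amino acid exchangers to the cell surface, was above the floor in all 13 hearts on one probe set (x14309_f_at). Its means were 4107 ± 639 (SD, n = 5) in wild-type, 4799 ± 582 (SD, n = 4) in heterozygous and 3854 ± 437 (SD, n = 4) in null hearts, and the null minus wild-type log2 difference was -0.09 ± 0.16. Its other probe set gave -0.05 ± 0.23. Slc6a9, a glycine carrier (X67056_s_at), ranged from 1458 in wild-type heart 1 to 4558 in wild-type heart 7, so that the widest spread lay within 1 genotype, and its null minus wild-type difference was -0.12 ± 0.30. Of the 8 amino acid carrier probe sets tested, 2 had a null minus wild-type difference above 0 and 6 below, with a median of -0.10 and none past the adjusted threshold.

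**Figure D2:**
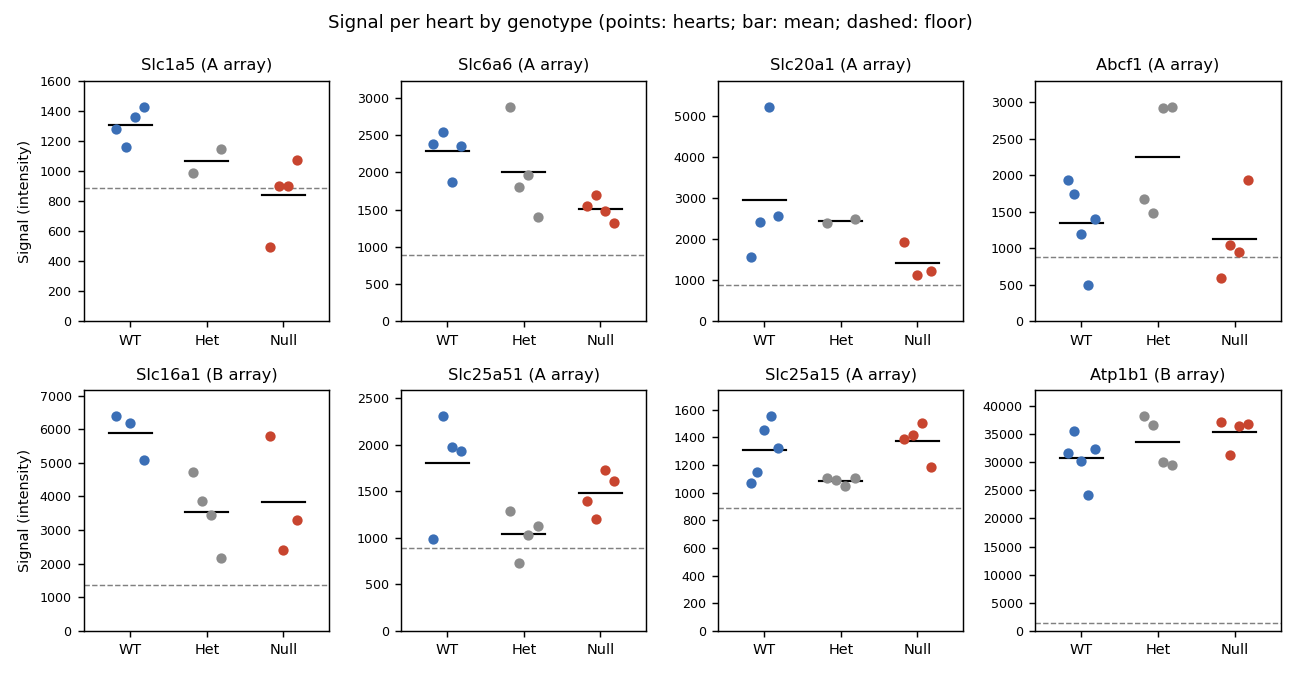
Each panel plots signal (linear intensity, vertical axis) of 1 probe set per heart, grouped by genotype (WT, wild-type; Het, heterozygous); bars are group means, and the dashed line is the floor of that array design. For Slc1a5 and Slc6a6 all null hearts sit below all wild-type hearts, and for the other 6 panels the null and wild-type hearts overlap.

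Among the carriers that couple ions, Slc20a1, the sodium-phosphate cotransporter that supplies most cells with phosphate (M73696_s_at), had the largest difference of any member between null and wild-type hearts when all hearts were used. The signals were 1576, 2423, 5215 and 2566 in wild-type hearts 2, 7, 9 and N1, 2404 and 2501 in heterozygous hearts 5 and 12, and 1940.1, 1125 and 1215 in null hearts 3, 4 and N3. Null heart 3 lay above wild-type heart 2, and wild-type heart 9 stood above all other hearts. Means were 2945 ± 1575 (SD, n = 4), 2452 ± 68.9 (SD, n = 2) and 1427 ± 447 (SD, n = 3) in wild-type, heterozygous and null hearts. The null minus wild-type log2 difference was -0.95 ± 0.35 (SE; unadjusted p = 0.018, adjusted p = 0.9999, limma). Without wild-type heart 9 it was -0.63, and Slc16a1 on the B array, at -0.71, and Slc6a6 on aa276906_s_at, at -0.69, then lay further from 0.

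RefSeq (GRCm38.p6) lists a pair of starts for Slc20a1, on the plus strand of chromosome 2, and the 250 bases before each are shown because this member had the largest difference with all hearts used and because a short motif bound by NK2-class factors, TNAAGTG, falls in 1 of them. Capitals mark the match, which is on the opposite strand and begins 34 bases before the start.
Upstream start, chr2:129198523-129198772: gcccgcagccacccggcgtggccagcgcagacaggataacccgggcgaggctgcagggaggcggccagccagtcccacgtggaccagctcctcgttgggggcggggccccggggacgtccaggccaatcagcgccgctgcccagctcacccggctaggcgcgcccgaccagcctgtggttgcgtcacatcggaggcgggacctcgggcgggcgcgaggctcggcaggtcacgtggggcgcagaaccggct
Downstream start, chr2:129206846-129207095: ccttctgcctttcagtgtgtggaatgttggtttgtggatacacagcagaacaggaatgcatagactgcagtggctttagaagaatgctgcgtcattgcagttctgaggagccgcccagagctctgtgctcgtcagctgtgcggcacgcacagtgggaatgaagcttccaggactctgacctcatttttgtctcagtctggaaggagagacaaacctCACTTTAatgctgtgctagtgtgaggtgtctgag
Searched on both strands, the motif occurred in this window at 4 of 63 starts of tested members (6.35%), at 14 of 205 starts of all members in the table (6.83%) and at 3305 of 32851 starts of all genes (10.1%). The 63 starts belong to 41 of the 50 tested genes, of which 4 held a match, and 151 of the 184 member genes were in the table. The start listed for Abcf1 held no match in this window, and Slc1a5 and Slc6a6 had no start listed. A match is a run of letters and not a shown binding site.

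Slc4a1, band 3, the chloride-bicarbonate exchanger of red blood cells, spread more between hearts than any other member always above the floor. On the B array (x02677_s_at) it gave 4351, 1852, 9516, 15383 and 7740.3 in wild-type hearts 1, 2, 7, 9 and N1, 7130.1, 4782, 9078 and 4944 in heterozygous hearts 5, 6, 12 and N2, and 4704, 2571, 14875 and 3478 in null hearts 3, 4, 8 and N3, an 8.31-fold range with its lowest and highest hearts both wild-type. On the A array (aa272183_s_at) it gave 1987, 3782, 7787 and 3127 in wild-type hearts 2, 7, 9 and N1, 5478, 2448, 1472 and 1652 in heterozygous hearts 5, 6, 12 and N2, and 4493, 4744, 4035 and 2282 in null hearts 3, 4, 8 and N3, a 5.29-fold range. Log2 differences, null minus wild-type, were -0.31 ± 0.55 on B and 0.03 ± 0.42 on A, with opposite signs. Of 12 erythroid markers, 10 were on the arrays; 6 of those were above the floor in every heart with a value and 4 (Epb42, Epor, Gata1 and Tfrc) in none. The summed signal of the markers with no blanks, Gata1 and Hba-a1, ranged from 2792 to 227251 in wild-type, 5958 to 60136 in heterozygous and 42081 to 129315 in null hearts. Gata1 was under the floor in every heart, so this sum is the Hba-a1 signal plus values under the floor. The alpha-globin Hba-a1 (v00714_f_at) gave 227332, 79920.2, 6712, 2117 and 26726 in wild-type hearts 1, 2, 7, 9 and N1, 53883, 60077, 5470.4 and 51829 in heterozygous hearts 5, 6, 12 and N2, and 50929, 102404, 128569 and 42054 in null hearts 3, 4, 8 and N3. Alas2, the first enzyme of heme synthesis in red cells, gave on the B array 9303, 4346 and 23986 in wild-type hearts 1, 2 and 7, 13792, 9129, 22504 and 13394 in heterozygous hearts 5, 6, 12 and N2, and 6808, 31748 and 14576 in null hearts 4, 8 and N3. Wild-type heart 9 was the highest heart for Slc4a1 on B and the lowest for Hba-a1 on v00714_f_at. Other erythroid markers differed from Hba-a1 there. Klf1, at 1999, was highest in that heart among the 9 hearts with a value. Hbb-y and Hba-x on the A array, at 54598 and 56779, lay within the range of the other hearts, and Alas2 had no value for it. The part of blood content in the spread of Slc4a1 was not tested.

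Slc4a3, the exchanger of the same family known from heart and brain (M28383_s_at), gave 1516, 2608, 2527 and 2210.4 in wild-type hearts 2, 7, 9 and N1, 1557 and 1487 in heterozygous hearts 5 and 12, and 1432, 2115 and 1644 in null hearts 3, 4 and N3. All genotypes overlapped except that wild-type hearts 7, 9 and N1 exceeded both heterozygous hearts. The log2 differences from wild-type hearts were -0.34 ± 0.24 in null and -0.51 ± 0.28 in heterozygous hearts. Slc4a2, a widely expressed member of that family, had a null minus wild-type difference of -0.07 ± 0.25.

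The ABC proteins gave 8 tested probe sets, and the largest differences among them involved heterozygous hearts. Abcf1, which carries the symbol of the family but works in translation initiation and crosses no membrane (aa199380_s_at), had signals of 1934, 1744, 1194, 493 and 1404 in wild-type hearts 1, 2, 7, 9 and N1, 1671, 1489.6, 2919 and 2939 in heterozygous hearts 5, 6, 12 and N2, and 600.2, 1042, 951 and 1931 in null hearts 3, 4, 8 and N3. Heterozygous hearts 12 and N2 stood above all others, hearts 5 and 6 lay within the wild-type range, and wild-type heart 9 and null heart 3 were under the floor. The heterozygous minus wild-type log2 difference was 0.64 ± 0.29 and the null minus heterozygous difference -0.91 ± 0.30 (SE; unadjusted p = 0.041 and 0.008, adjusted p = 0.981 and 0.774, limma).

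Abcg2, which exports porphyrins and many drugs (aa616278_s_at), gave 1728, 1203, 894 and 1089 in wild-type hearts 2, 7, 9 and N1, 1514 and 1979 in heterozygous hearts 5 and 12, and 1752, 2050.3, 1848 and 1059 in null hearts 3, 4, 8 and N3. Groups overlapped, and the log2 differences from wild-type hearts were 0.45 ± 0.25 in null and 0.54 ± 0.31 in heterozygous hearts, with adjusted p = 0.9999 and 0.981 in limma. Abcd3, of the peroxisomal membrane (aa028386_at), differed by 0.16 ± 0.20 between null and wild-type hearts, and Abce1, which recycles ribosomes and is likewise no membrane transporter (aa674093_at), by 0.02 ± 0.22. Abca1, which passes cholesterol to apolipoproteins, had a difference of -0.14 ± 0.20 on 1 probe set and was under the floor on another. For Abcg1, a sterol exporter (u34920_s_at), no heterozygous heart exceeded the floor and 3 of 4 wild-type hearts did. Abcg1 met the filter only through wild-type and null hearts. With values under the floor raised to it, the wild-type mean log2 signal lay 1.17-fold above the floor, which is not a lower bound on a difference. Only 2 heterozygous hearts had a value, and heterozygous heart 5 lay above wild-type heart 2. The heterozygous minus wild-type difference had an adjusted p of 0.981 in limma. Measured means were 746 in heterozygous and 1029 in wild-type hearts.

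Metal carriers, Golgi and endoplasmic reticulum carriers and the remaining families held no member with an unadjusted p under 0.05 between genotypes in limma. Slc31a1, the copper importer, had null minus wild-type log2 differences of -0.14 ± 0.19 and -0.06 ± 0.16 on its probe sets. Slc39a7, which releases zinc from the secretory pathway (M32010_s_at), differed by -0.15 ± 0.22, and Slc39a6, a zinc importer of the plasma membrane (aa217411_g_at), by 0.15 ± 0.23. Slc35b1, a nucleotide carrier of the endoplasmic reticulum (D87990_s_at), gave 3409.6, 3573, 3308 and 3374 in wild-type hearts 2, 7, 9 and N1, 3412 and 3771 in heterozygous hearts 5 and 12, and 4222, 3686, 3421 and 3066 in null hearts 3, 4, 8 and N3. Its highest heart exceeded its lowest by 1.38-fold, and its difference was 0.07 ± 0.15. Slc35b2, which brings the sulfate donor into the Golgi (w71033_s_at), differed by -0.01 ± 0.15 between null and wild-type hearts and by 0.27 ± 0.15 between heterozygous and wild-type hearts. Slc22a17 and Slc22a23, of the organic ion carrier family, differed by 0.00 ± 0.22 and -0.38 ± 0.23 between null and wild-type hearts. The betaine and GABA carrier Slc6a12 had a null minus heterozygous difference of 0.65 ± 0.31 and an unadjusted p of 0.055 in limma.

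The comparison of null with wild-type hearts asked which members differ when neither allele encodes the domain. None of the 61 tested members passed an adjusted p of 0.05 in limma, where 1 of 4494 probe sets did (0.0223%). An unadjusted p under 0.05 was found for 0 members in the higher direction (1.16% of all probe sets) and for 3 in the lower direction, Slc1a5, Slc6a6 and Slc20a1 (1.25% of all). The 2 members with every null heart below every wild-type heart, Slc1a5 and Slc6a6, compare with 1.2% of all probe sets, and the 0 members with every null heart above compare with 1.07%. The log2 difference was above 0 for 29 members and below 0 for 32, with a median of -0.03 against -0.01 over all tested probe sets. No difference exceeded 1 on the log2 scale, and the median SE of a member was 0.20. Without wild-type heart 2 the number of members with an unadjusted p under 0.05 was 8 (4.05% of all probe sets in that fit passed), and without null heart 8 it was 6 (2.76% of all). Without heterozygous heart 5 or 12, which left 35 and 36 members to test, it was 1 (2.15% and 2.18% of all).

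Heterozygous against wild-type hearts addressed the loss of the domain from 1 allele. Again 0 of 61 members passed the adjusted threshold in limma (0.0% of all probe sets). An unadjusted p under 0.05 was found for 1 member in the higher direction, Abcf1 (1.6% of all probe sets), and for 2 in the lower, Slc25a51 and Slc16a1 (1.78% of all). Slc25a51, which takes NAD into mitochondria (aa403448_s_at), had signals of 989, 2308, 1982 and 1937 in wild-type hearts 2, 7, 9 and N1, 1286, 730.4, 1031 and 1128 in heterozygous hearts 5, 6, 12 and N2, and 1399, 1199.9, 1735 and 1616 in null hearts 3, 4, 8 and N3. Heterozygous hearts were lower than wild-type hearts 7, 9 and N1, but wild-type heart 2 lay among them. The log2 difference was -0.68 ± 0.24 (SE; unadjusted p = 0.012, adjusted p = 0.981, limma), while a second probe set (aa268619_s_at) gave 0.04 ± 0.14. Over all members, 24 differences were above 0 and 37 below, with a median of -0.06. The number with an unadjusted p under 0.05 was 6 without wild-type heart 2 (6.15% of all probe sets in that fit passed), 1 without heterozygous heart N2 (2.44% of all), and 0 without the 3 N hearts (1.91% of all). Slc2a1, with 2 heterozygous values, was the 1 member with every heterozygous heart above every wild-type heart (2.63% of all probe sets). Slc1a5, also with 2 heterozygous values, and Slc16a1 on B were the 2 with every heterozygous heart below (2.87% of all). On the A array 25 tested probe sets had only 2 heterozygous values.

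Null against heterozygous hearts gave 0 of 61 members past the adjusted threshold in limma (0.0% of all probe sets). An unadjusted p under 0.05 was found for 1 member in the higher direction, Slc25a15 (2.85% of all probe sets), and for 1 in the lower, Abcf1 (2.94% of all). Slc25a15, the ornithine carrier of the mitochondrial inner membrane (aa213259_s_at), gave 1069.6, 1148, 1455, 1554 and 1323 in wild-type hearts 1, 2, 7, 9 and N1, 1104, 1091, 1048 and 1106 in heterozygous hearts 5, 6, 12 and N2, and 1387, 1416, 1508 and 1189.8 in null hearts 3, 4, 8 and N3. All null hearts were above all heterozygous hearts, whose values lay close together, and the wild-type hearts spanned both. The log2 difference was 0.33 ± 0.15 (SE; unadjusted p = 0.041, adjusted p = 0.79, limma). Across the members 36 differences were above 0 and 25 below, with a median of 0.05 against 0.02 over all tested probe sets. The number with an unadjusted p under 0.05 was 5 without wild-type heart 2 (6.05% of all probe sets in that fit passed), 4 without null heart N3 (7.0% of all), and 1 without heterozygous heart 12 (4.06% of all) or wild-type heart N1 (5.35% of all). Every null heart was above every heterozygous heart for 5 members, Slc25a15, Slc25a4 on B, Slc25a1, the ABC protein Abcb8 and the glutamine carrier Slc38a5 (3.78% of all probe sets). The opposite held for 1 member, Slc20a1 (3.92% of all). Slc25a1, Abcb8, Slc38a5 and Slc20a1 had only 2 heterozygous values. The 3 comparisons share their hearts and are not independent of each other.

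**Figure D3:**
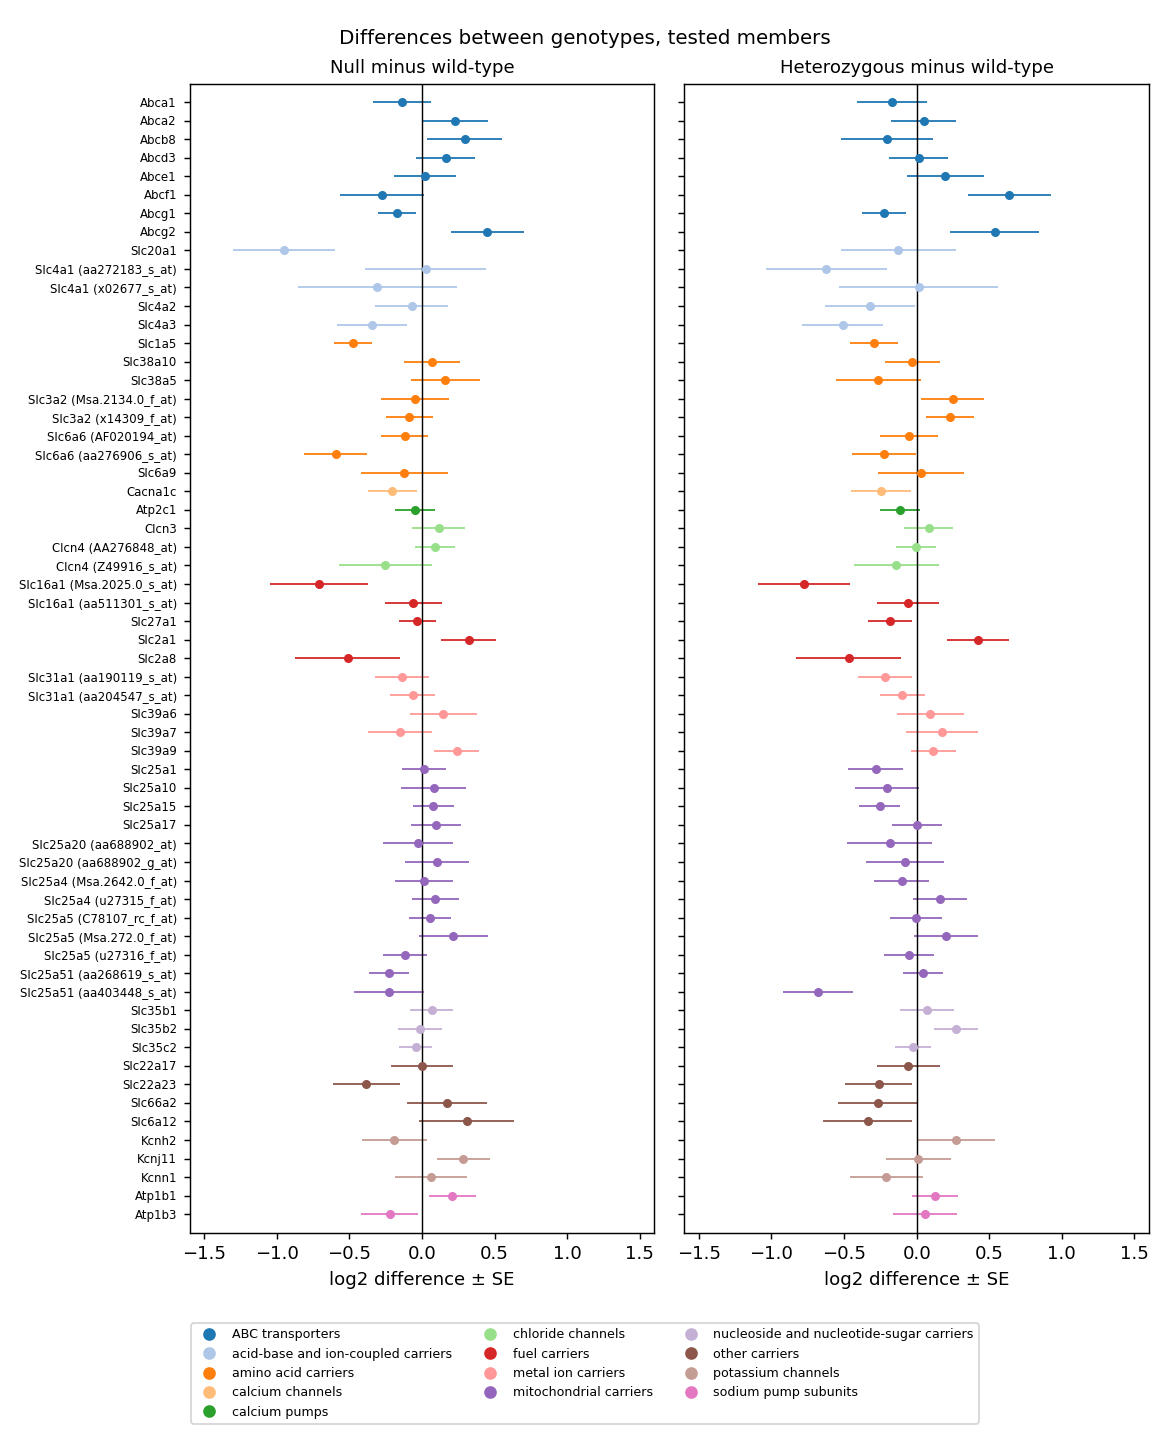
Points are log2 differences of the 61 tested probe sets (null minus wild-type at left, heterozygous minus wild-type at right) with SE bars, ordered and coloured by role; several probe sets of a gene carry their names. Slc20a1 lies farthest to the left in the null panel at -0.95, and no point in either panel passed the adjusted threshold.

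Several tested probe sets were available for 10 genes. The null minus wild-type difference had 1 sign across all probe sets of a gene in 6 of these genes, the heterozygous minus wild-type difference in 6, and the null minus heterozygous difference in 4. Slc31a1, Slc3a2 and Slc6a6 kept 1 sign in all 3 comparisons, and Slc25a5 and Slc4a1 in none. Another 55 transport and ion-handling genes outside the symbol rule had 69 probe sets. Of these, 35 were above the floor in every heart with a value (50.7%, against 23.5% of all probe sets). They gave 43 tested probe sets and 0 past the adjusted threshold in any comparison in limma, where at most 0.0223% of all passed. An unadjusted p under 0.05 was found for 1 of the 43 in null against wild-type hearts (2.40% of all probe sets tested). It was found for 1 in heterozygous against wild-type (3.38% of all) and for 2 in null against heterozygous hearts (5.79% of all).

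The heart numbers fall into a low range, 1 to 6, a range from 7 to 12, and the N series, each with all 3 genotypes; what the ranges stand for is not given in the labels. Hearts 7 to 12 and N were compared with hearts 1 to 6 with genotype in the model, a contrast chosen after the data had been seen. Of the 61 tested members, 58 exceeded the floor in at least 1 heart of both ranges. Among these, 1 was higher in the later hearts past an adjusted p of 0.05 (3.87% of all such probe sets) and 2 were lower (3.13%). Slc39a6 was higher, at 1438 ± 244 (SD, n = 7) against 964 ± 232 (n = 6), a log2 difference of 0.54 ± 0.14 (adjusted p = 0.0294, limma), although null heart 3, of the low range, exceeded 3 of the later hearts. Slc25a20 on aa688902_g_at was lower in the later hearts by -0.57 ± 0.14 on the log2 scale (adjusted p = 0.0293, limma). Slc31a1 on aa204547_s_at was lower by -0.36 ± 0.09 (adjusted p = 0.0364, limma). They exceeded the floor in 4 of 4 and 6 of 6 hearts of the low range with a value. Among the later hearts 2 of 6 and 3 of 7 did. The later hearts alone would not have met the filter of 4 arrays, so these differences are a description. Clcn4 on Z49916_s_at exceeded the floor in 4 of the 5 hearts of the low range with a value and in none of the 7 later hearts, with means of 2372 and 926. It entered the test only through the range in which it was high, so these values are a description, and its other probe set differed by 0.14 ± 0.11 between later and earlier hearts. Slc4a1 did not pass on either array, with differences of 1.09 ± 0.36 on B and -0.35 ± 0.35 on A (adjusted p = 0.079 and 0.574, limma). The 6 tested erythroid markers had a median difference of -0.37, from -2.12 for Hba-a1 on v00714_f_at to 1.29 for Alas2, the 1 marker that passed (adjusted p = 0.0328, limma).

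**Figure D4:**
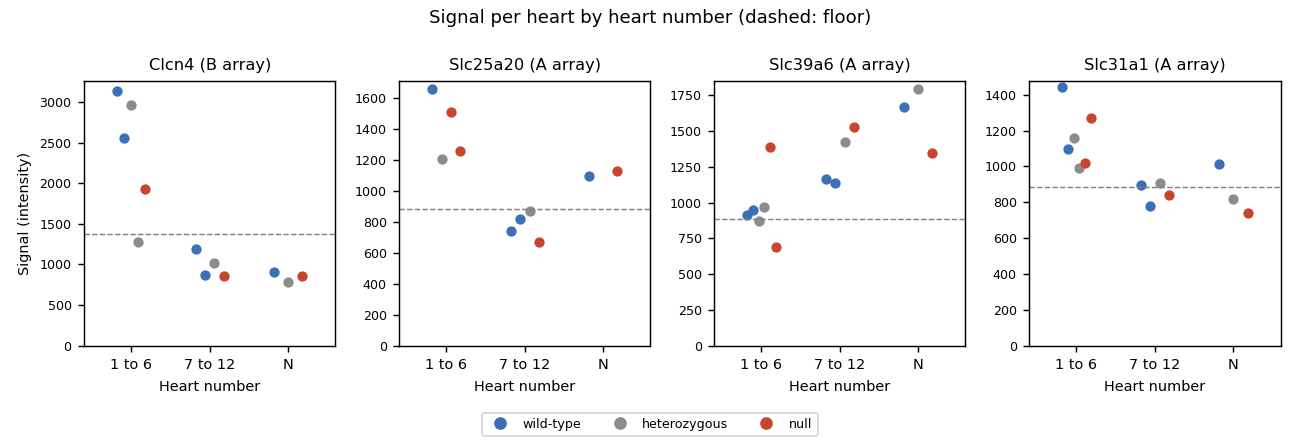
Signal (linear intensity, vertical axis) per heart is plotted against the range of heart numbers, coloured by genotype, with the floor dashed. Slc39a6, Slc25a20 and Slc31a1 passed the threshold in the contrast of later with earlier hearts. Clcn4 entered the test only through hearts 1 to 6, and Slc25a20 and Slc31a1 met the filter only with those hearts counted. Clcn4, Slc25a20 and Slc31a1 are lower and Slc39a6 is higher in most hearts from 7 to 12 and N than in hearts 1 to 6.

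Within the ranges of heart numbers the members with a small unadjusted p are described by differences of group means of 1 or 2 hearts, with no test. The same hearts gave the small p, so the ranges are no replication. For Slc1a5, Slc6a6 on aa276906_s_at and Slc16a1 on B the genotypes compared below did not overlap. Their sign in every range was therefore fixed in advance. Slc1a5 differed between null and wild-type hearts by -0.52, -0.48 and -0.41 on the log2 scale in hearts 1 to 6, 7 to 12 and N, and Slc6a6 on aa276906_s_at by -0.56, -0.56 and -0.83. Slc20a1 differed by -0.09 in hearts 1 to 6 and by -1.08 in the N hearts, with no null value in hearts 7 to 12. Abcf1 differed between null and heterozygous hearts by -0.71, -1.62 and -0.61, and between heterozygous and wild-type hearts by -0.22, 1.50 and 1.07, where the sign was not shared. The heterozygous minus wild-type difference of Slc25a51 on aa403448_s_at was 0.11, -1.05 and -0.78, and that of Slc16a1 on B was -0.56 in hearts 1 to 6 and -0.57 in hearts 7 to 12.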

How the data were processed

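The authors deposited 1 linear intensity value per probe set and array, with negative values and blank cells. Per the labels, RNA came from whole hearts; the software behind the values is not given in the sources used here. Values were used as deposited, blanks as missing. Noise was taken from the negative values of each array design as their root mean square, 443 on A and 686 on B, and values under 2 times the noise were raised to that floor before log2. Probe sets with at least 4 arrays above the floor and at least 2 values per genotype entered a limma fit (version 3.58.1, R 4.3.3) of the 13 hearts for each design, with the trend option. Its two-sided p-values were adjusted by Benjamini-Hochberg over both designs together, 4494 probe sets, with a threshold of 0.05. The procedure was tested on simulated data.

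Genes came from the platform annotation, checked by gene ID against the RefSeq table of GRCm38.p6 (for A, 5551 of 5560 were found, and for B, 1993 of 2001). Of the probe sets, 197 on A and 27 on B carried several genes and 827 and 4567 none; 4 matching the symbols but carrying several genes, and 5 for the 3 excluded genes, were left out. Among tested members, 47 of 61 had names ending in s_at or f_at, whose probes may match related transcripts. Members were named in the text if they passed the adjusted threshold, had an unadjusted p under 0.05, had no overlap between null and wild-type hearts, were 1 of the 2 brightest tested probe sets of their role, or were among 57 well-known cardiac or embryonic genes, of which 38 were on the arrays. Slc4a2, Slc25a1, Slc25a10, Slc25a17, Slc2a8, Slc27a1, Abcg1, Abcb8, Slc38a5, Slc39a6, Slc6a12 and some channels under the floor were added after their values were seen. The members, roles and lists were chosen with earlier results of these data known. Alternatives were the floor, the noise estimate, the filter, the scaling, the samples in the fit and leaving out each heart. The number of arrays limits the precision.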

Additional observations from a re-analysis of the deposited data

Results flagged for a closer look

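In 6 of 85 groups of 4 or 5 hearts, taken over the members named, a single heart stood apart from the others of its genotype by Dixon's criterion, where chance alone gives about 1 group in 20. Heterozygous heart N2 gave 3291 for Abcd3 (aa028386_at), with the others between 2531 and 2641. Wild-type heart N1 gave 1679 for Slc16a1 on the A array, with the others between 1170.4 and 1208. Wild-type heart 2 gave 2077 for Slc25a20 (aa688902_at), with the others between 1362 and 1476. Wild-type heart 2 also gave 3935 for Atp1b3 (U59761_s_at), below the others at 4205 to 4249.7. Null heart 4 gave 31307 for Atp1b1 (x61433_s_at), below the others at 36422 to 37086. Heterozygous heart 5 gave 28458 for Slc25a4 on the B array, below the others at 31488 to 31902.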

How the results depend on the processing

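The number of members past the adjusted threshold was 0 in each of the 3 genotype comparisons under all 25 alternatives run. Counts at an unadjusted p under 0.05 moved; the share of all probe sets tested in the same fit follows each. For null against wild-type hearts, 3 members (2.40%) became 6 with the robust noise estimate (2.35%), and 1 to 8 when a heart was left out (1.73% to 4.05%). For heterozygous against wild-type hearts, 3 (3.38%) became 5 with the robust estimate (3.62%), 0 without the N hearts (1.91%), and 1 to 6 when a heart was left out (2.44% to 6.15%). For null against heterozygous hearts, 2 (5.79%) became 4 with a floor of 1 times the noise (5.86%), 7 with the robust estimate (5.85%), 5 with no filter (2.40%), 6 with the heart-number ranges as a block (9.95%), 4 with a fit to only the compared genotypes (5.60%), and 1 to 5 when a heart was left out (4.06% to 7.36%). The cause was not tested. The 35 members above the floor in every heart with a value became 20 with a floor of 3 times the noise, 59 with 1 times the noise and 63 with the robust estimate, which by construction move that line, and 35 to 37 when a heart was left out; quantile scaling gives no such count. Of the single members' differences under alternatives, 163 changed sign without being called in any setting, and 2592 kept their direction and side of the threshold. The Slc1a5 difference between null and wild-type hearts stayed between -0.68 and -0.43 over the 22 of 25 alternatives in which it was tested. That of Slc6a6 on aa276906_s_at stayed between -0.69 and -0.51 over 25, and that of Slc20a1 ran from -1.20 to -0.63 over 23. Their unadjusted p was under 0.05 in limma in 22, 23 and 18 of these alternatives. No paired analysis was possible because the genotypes share no heart numbers. Signals near the floor limit the weaker members, such as Slc1a5 and Cacna1c.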
